A study of Mus musculus with 24 samples.

Results

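Respiratory complex I, the NADH dehydrogenase of the inner mitochondrial membrane, was followed through its nuclear genes in maturing mouse red cells. The genes were taken as all those whose symbol in the probe annotation starts with Nduf, which gave 40 of the 16593 named genes on the array. Of these, 31 passed the detection filter (detection p below 0.01 on at least 3 of 24 arrays) and were tested, among 4846 tested genes in all. The arrays compared mutant with wild-type reticulocytes, the young red cells that have left the marrow without a nucleus. Blood rich in these cells was kept ex vivo, and RNA was taken at 0, 12 and 24 h from 5 mutant and 3 wild-type replicates at each time. All groups came from adult male C57BL/6J mice, and the groups were thus mutant and wild type at 0 h, mutant and wild type at 12 h, and mutant and wild type at 24 h. The labels name no mutated gene, allele or promoter, so no targeted gene was there to test them by. The design text calls the replicates biological.

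Complex I passes electrons from NADH to ubiquinone and pumps protons across the inner membrane. Its matrix arm carries the flavin and the iron-sulfur clusters, its membrane arm holds the proton pumps, and assembly factors help to build it without staying in the finished enzyme. Core subunits are those shared with bacteria, and accessory (supernumerary) subunits surround them. Reticulocytes lose their mitochondria and their RNA as they mature into red cells.

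The 40 genes comprised 15 matrix arm subunits, 17 membrane arm subunits, 5 assembly factors, the acyl carrier protein Ndufab1, the pseudogene Ndufs5-ps, and Ndufa4, whose product is now assigned to cytochrome c oxidase. The label of complex I subunits and assembly factors thus holds for all but Ndufs5-ps and Ndufa4. Tested were 14 matrix arm and 13 membrane arm subunits, 2 assembly factors, Ndufs5-ps and Ndufa4. The 9 genes that were not tested included Ndufs1, the core subunit that takes electrons onward from the flavin, with 0 arrays above background. Ndufab1, Ndufaf7, Ndufb10, Ndufb2 and Ndufb4 were also above background on 0 arrays, Ndufaf5 and Ndufb5 on 1 array each and Ndufaf3 on 2 arrays. Ndufs6 has a copy of like name in the mouse genome, Ndufs6b, so its signal is uncertain in origin.

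RefSeq promoter sequences (build GRCm38.p6), which run from 250 bases before to 50 bases after a gene's start, were at hand for 36 of the 40 genes. They were searched on both strands for 4 motifs: the motif of NRF-1, the ETS motif of GABP (CCGGAAG), the motif of YY1 and the GATA motif (AGATAAG). NRF-1, GABP and YY1 are known as regulators of nuclear genes for mitochondrial proteins, and GATA factors of erythroid genes. The NRF-1 motif was in the promoters of 7 of the 36 genes (19.4%), against 4.6% of all 32851 promoters. The ETS motif was in 5 (13.9%, against 8.86%), the YY1 motif in 4 (11.1%, against 0.633%) and the GATA motif in 0, against 3.04% of all promoters. A match is a description of these letters and not a binding site.

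The promoters below are shown because their genes stand for the main patterns that follow. Ndufa1 was lower in mutant at each time, Ndufb6 was lower in mutant in culture, Ndufs6 changed over the first 12 h by different amounts in the genotypes, and Ndufs7 was higher in mutant at 0 and 12 h. Each sequence is given 5′ to 3′ on the gene's strand, and capitals mark a motif match, on either strand.
Ndufa1, chrX:37191189-37191488, minus strand: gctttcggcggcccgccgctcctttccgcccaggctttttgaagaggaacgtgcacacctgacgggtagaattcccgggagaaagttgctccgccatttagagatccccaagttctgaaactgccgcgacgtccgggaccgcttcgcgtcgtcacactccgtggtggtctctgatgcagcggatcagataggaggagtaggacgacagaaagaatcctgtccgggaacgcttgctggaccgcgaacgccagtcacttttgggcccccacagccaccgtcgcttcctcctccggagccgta
Ndufb6, chr4:40279372-40279671, minus strand: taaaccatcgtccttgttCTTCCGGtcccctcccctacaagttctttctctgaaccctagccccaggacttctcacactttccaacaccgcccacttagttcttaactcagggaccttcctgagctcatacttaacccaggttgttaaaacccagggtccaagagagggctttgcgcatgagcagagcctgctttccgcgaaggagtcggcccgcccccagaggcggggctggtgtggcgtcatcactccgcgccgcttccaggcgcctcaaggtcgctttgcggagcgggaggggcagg
Ndufs6, chr13:73328433-73328732, minus strand: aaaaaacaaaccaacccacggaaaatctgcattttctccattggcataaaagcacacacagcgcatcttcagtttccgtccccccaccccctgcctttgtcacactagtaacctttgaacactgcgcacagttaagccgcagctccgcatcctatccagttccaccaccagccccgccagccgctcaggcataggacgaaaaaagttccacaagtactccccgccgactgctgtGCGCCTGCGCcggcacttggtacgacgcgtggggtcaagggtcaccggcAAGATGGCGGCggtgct
Ndufs7, chr10:80249199-80249498, plus strand: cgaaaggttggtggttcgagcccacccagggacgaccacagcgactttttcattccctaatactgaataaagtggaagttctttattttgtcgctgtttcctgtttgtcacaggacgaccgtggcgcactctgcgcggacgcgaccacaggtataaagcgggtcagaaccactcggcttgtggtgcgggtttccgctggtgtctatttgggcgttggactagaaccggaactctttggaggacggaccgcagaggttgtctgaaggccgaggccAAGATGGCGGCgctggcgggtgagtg
The Ndufa1 promoter held none of the 4 motifs. The Ndufb6 promoter held an ETS match, in reverse, that of Ndufs6 an NRF-1 and a YY1 match, and that of Ndufs7 a YY1 match after the gene's start. No printed match overlapped another.

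Mutant arrays tended to detect more of the 40 genes than wild-type arrays, as they did of all probes. At 0 h, mutant arrays detected 5 to 28 genes (median 20), against 3 to 8 (median 3) on wild-type arrays. At 12 h, mutant arrays detected 26 to 32 genes (median 29), against 12 to 15 (median 15) on wild-type arrays. At 24 h, mutant arrays detected 24 to 29 genes (median 27), against 17 to 22 (median 22) on wild-type arrays. The groups overlapped at 0 h only. Of all probes on the array, mutant arrays detected 3.6 to 17.04% and wild-type arrays 2.171 to 4.619% at 0 h, mutant arrays 12.97 to 28.77% and wild-type arrays 4.923 to 6.616% at 12 h, and mutant arrays 10.16 to 18.27% and wild-type arrays 6.931 to 7.717% at 24 h. Ndufa13 and Ndufa3, both membrane arm subunits, were above background on all 24 arrays, while 24 of the 31 tested genes were above background on no array of at least 1 group.

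**Figure D1:**
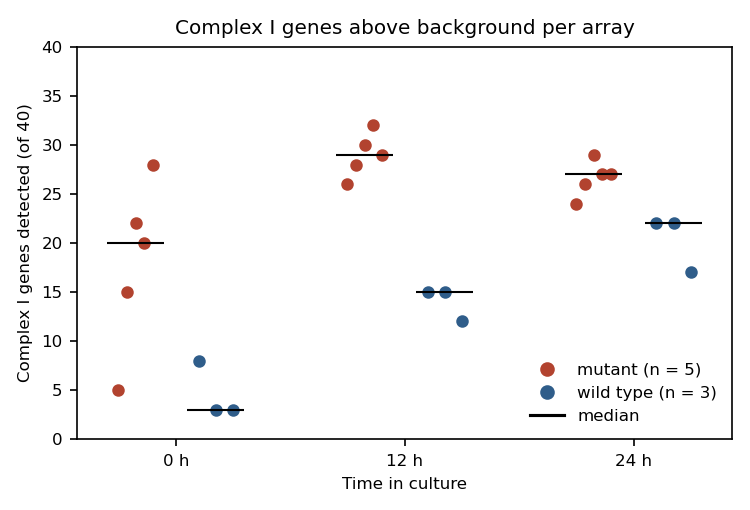
Number of the 40 complex I genes above background (detection p below 0.01) on each array, by time in culture, with mutant (red, n = 5) left of wild type (blue, n = 3) and a line at each median. Mutant arrays at 12 h detected 26 to 32 genes and wild-type arrays 12 to 15.

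Several properties of the arrays moved with genotype or time. The lowest normalized log2 intensity of any probe above background was 5.25 to 6.97 on mutant and 6.64 to 7.80 on wild-type arrays at 0 h, 4.95 to 5.47 on mutant and 6.18 to 6.55 on wild-type arrays at 12 h, and 5.20 to 5.70 on mutant and 6.00 to 6.12 on wild-type arrays at 24 h. A wild-type level below about these limits could not be measured. The median raw intensity was 132 to 298 at 0 h and 38.7 to 44.7 later, and replicates at 0 h correlated at 0.782 to 0.972 in mutant and 0.764 to 0.827 in wild type, against 0.918 to 0.992 in the later groups. At 0 h, mutant arrays 1 and 2 and wild-type arrays 2 and 3 had median raw intensities above 200, so results at 0 h are also given within these arrays and within the others. The reticulocyte genes Hba-a1, Alas2, Slc4a1 and Bnip3l were above background on all 24 arrays, Tfrc on 22 and Epb42 on none. At 0 h, 3 of the 5 tested reticulocyte genes were called: Tfrc was higher in mutant (3.65, adjusted p = 0.00021), and Alas2 (-0.16, adjusted p = 0.0041) and Bnip3l (-0.25, adjusted p = 0.039) were lower. At 12 h Tfrc (2.06, adjusted p = 0.019) and Alas2 (0.29, adjusted p = 1.6e-05) were higher, and at 24 h 0 were called. Of 29 tested markers of leukocytes and platelets, 24 were higher in mutant at 0 h, 23 at 12 h and 4 at 24 h, and 0, 1 and 0 were lower. Their summed normalized intensity was 8318 to 22149 on mutant and 1440 to 4082 on wild-type arrays at 0 h, 8012 to 19873 on mutant and 3574 to 4776 on wild-type arrays at 12 h, and 5412 to 14162 on mutant and 3297 to 5472 on wild-type arrays at 24 h. The T cell markers Cd5, Cd8a and Cd4, the neutrophil marker Mmp8 and the monocyte marker Ccr2 were above background on no array. The part of these markers and of the detection limit in the results below was not tested. In whole blood samples fewer cells of a type and less RNA per cell cannot be told apart.

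At 0 h, 13 of the 31 tested complex I genes were higher and 3 were lower in mutant than in wild type (limma, Benjamini-Hochberg adjusted p below 0.05 over all tested genes). Among all tested genes 42.5% were called, 34.1% higher and 8.4% lower. The median log2 difference (mutant minus wild type) was 0.65 over the complex I genes and 0.26 over all genes. The baseline of all genes depended on the filter. With no detection filter their median was -0.02 and 20.1% were called, with 11 higher and 4 lower of the 40 complex I genes. The genes called higher lay mostly in the matrix arm, where 10 of 14 were higher and 1 was lower (median 1.04), against 3 higher and 2 lower of 13 in the membrane arm (median 0.09). The difference between the arms was not tested. Of the 5 tested core subunits 4 were higher. For 11 of the 13 genes called higher, no wild-type array was above background, and none of the 13 gave a lower bound on the fold, so their differences are given on the log2 scale of the fit only.

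Ndufa1, a small membrane-spanning accessory subunit needed for assembly, had normalized log2 intensities of 6.55, 8.13, 7.44, 7.63 and 7.53 on mutant arrays at 0 h, against 11.29, 10.93 and 10.74 on wild-type arrays. Every mutant array was below every wild-type array, and the gene was 11.6-fold lower in mutant (log2 difference -3.53 ± 0.27 SE, limma adjusted p = 8e-10). Ndufa1 kept its call under each of the 12 other settings, although the difference was -1.78 with median centring of the arrays and -1.37 in the authors' processed values.

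Ndufa13, also known as GRIM-19, an accessory subunit of the membrane arm, had log2 intensities of 9.82, 9.87, 9.50, 9.58 and 9.81 on mutant arrays at 0 h, against 11.22, 11.17 and 10.83 on wild-type arrays. No values were shared, and the gene was 2.56-fold lower in mutant (log2 difference -1.36 ± 0.19 SE, limma adjusted p = 4.6e-06). The call was lost with median centring (-0.04) and in the authors' processed values (-0.32). Ndufa5, a matrix arm accessory subunit, had 5.33, 5.12, 5.85, 5.53 and 6.16 on mutant arrays, against 6.19, 6.57 and 5.91 on wild-type arrays, of which none was above background. These groups overlapped, and the log2 difference was -0.62 ± 0.25 SE (limma adjusted p = 0.049). The call was lost under 8 of 12 other settings and in 5 of 8 fits that left out 1 array.

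Ndufv3, an accessory subunit of the part of the matrix arm that oxidizes NADH, showed the largest difference among the genes called higher at 0 h. Its log2 intensities were 6.56, 6.90, 6.94, 6.42 and 6.90 on mutant arrays, against 4.80, 4.66 and 5.37 on wild-type arrays. The groups did not overlap, and the log2 difference was 1.80 ± 0.20 SE (limma adjusted p = 3.2e-07). A second probe for the gene gave 1.29 (adjusted p = 6e-05 over all probes). Ndufs8, a core subunit that carries iron-sulfur clusters, had 5.10, 6.27, 5.96, 5.96 and 6.00 on mutant arrays, against 4.74, 4.81 and 4.73 on wild-type arrays. Again they did not overlap, and the log2 difference was 1.10 ± 0.22 SE (limma adjusted p = 0.00036).

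The core subunit Ndufs7, which holds the last iron-sulfur cluster before ubiquinone, spanned 4.73 to 6.75 on mutant and 4.65 to 4.72 on wild-type arrays, a log2 difference of 1.58 ± 0.32 SE (limma adjusted p = 0.00038). Ndufv1, the core subunit that binds NADH and flavin, spanned 5.18 to 6.95 on mutant and 4.78 to 5.15 on wild-type arrays, a log2 difference of 1.24 ± 0.31 SE (limma adjusted p = 0.0032). Ndufs3, a core subunit of the matrix arm, had 5.92, 6.61, 5.87, 5.65 and 5.97 on mutant arrays, against 4.98, 5.29 and 4.98 on wild-type arrays, a log2 difference of 0.92 ± 0.23 SE (limma adjusted p = 0.0028). The groups did not overlap for any of the 4 core subunits called higher. The gap was as small as 4.73 against 4.72 for Ndufs7 and 5.18 against 5.15 for Ndufv1. All their wild-type values lay below the detection limit of those arrays (6.64 to 7.80). The share of all tested genes without overlap was not taken, here or at the later times. Ndufv2, the remaining tested core subunit, was not called (0.73, adjusted p = 0.084). The other genes called higher were accessory subunits, with log2 differences of 0.55 (Ndufa12) to 1.55 (Ndufa7), among them Ndufa6 (1.5) and Ndufs6 (1.45). For Ndufa6, Ndufa7, Ndufa8, Ndufa9, Ndufa10, Ndufa12, Ndufb8 and Ndufs6 the groups overlapped.

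Within the 0 h arrays of median raw intensity above 200 (mutant 1 and 2, wild type 2 and 3), 9 complex I genes were higher and 4 lower in mutant. Among all tested genes 23.5% were called there. Their median log2 difference was 0.21 over the complex I genes and 0.10 over all genes. The other 0 h arrays hold a single wild-type array whose spread was taken from the other groups, so no calls are counted there. In those arrays the medians were 0.37 and 0.36. Ndufa1 was lower in both sets of arrays (-3.50 and -3.76), as was Ndufa13 (-1.15 and -1.59). Ndufs7 was 0.90 in the arrays above 200 (adjusted p = 0.074) and 2.01 in the others, and Ndufv1 was 0.42 (adjusted p = 0.15) and 1.64. Ndufs6 was -0.53 within the arrays below 200, where wild-type array 1 stood at 7.97, against 5.11 and 4.94 on wild-type arrays 2 and 3. A fit on the 0 h arrays alone called 5 complex I genes, 3 higher and 2 lower, where 12.2% of all genes were called.

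**Figure D2:**
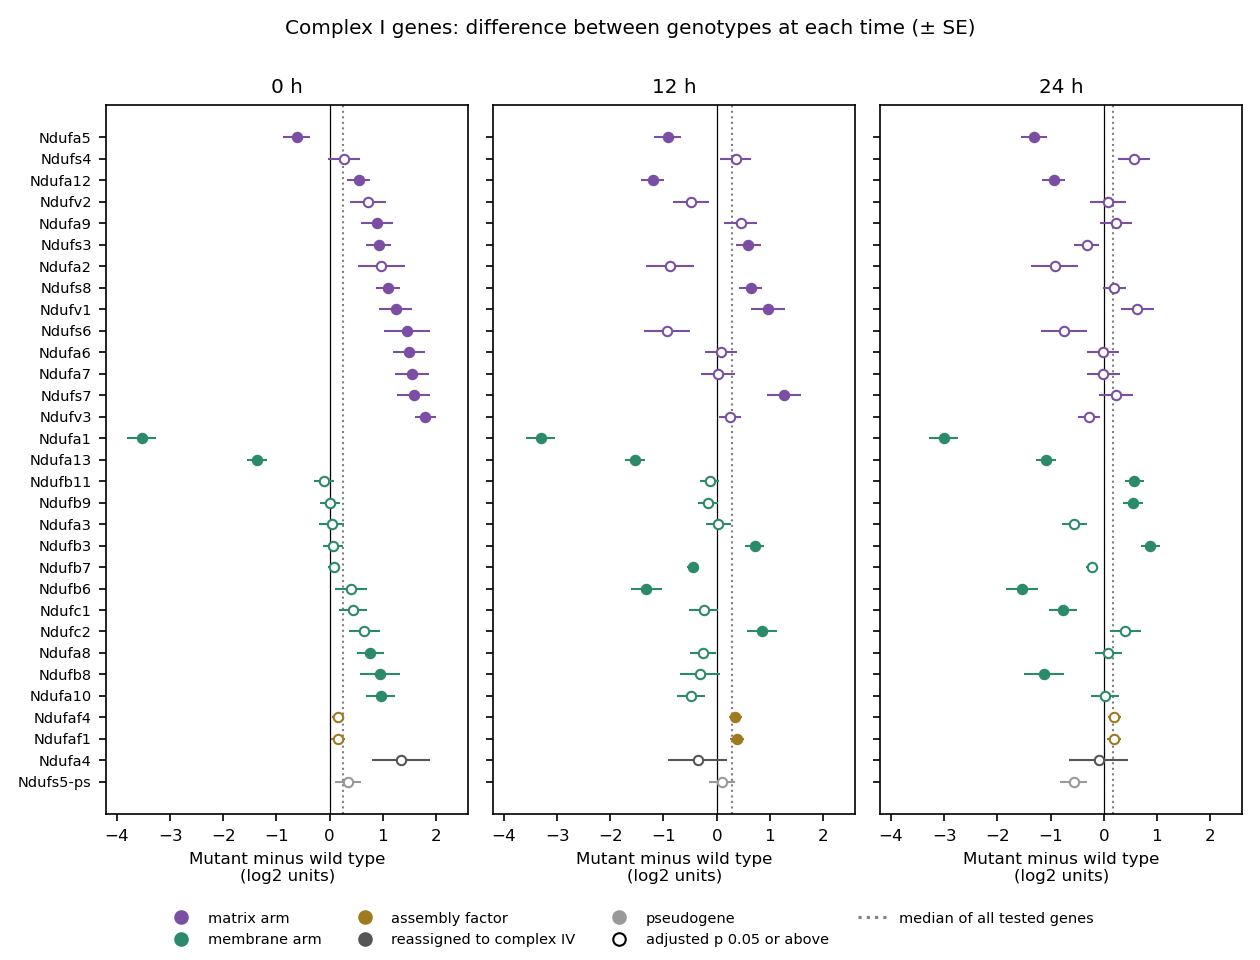
Log2 difference, mutant minus wild type, for the 31 tested complex I genes at 0, 12 and 24 h (points, ± SE of the limma fit), grouped by place in the enzyme. Filled points had an adjusted p below 0.05, and the dotted line is the median of all tested genes. Ndufa1 lies at -3.53, -3.31 and -3.01, apart from the rest, and the matrix arm lies mostly right of the line at 0 h, where its median was 1.04.

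At 12 h, 8 complex I genes were higher and 6 were lower in mutant (limma, adjusted p below 0.05), where 50.2% of all tested genes were called, 34.3% higher and 15.9% lower. The median log2 difference was -0.13 over the complex I genes and 0.29 over all genes. With no detection filter the median of all genes was 0.004 and 16.5% were called, with 6 higher and 6 lower of 40 complex I genes. The matrix arm had 4 higher and 2 lower of 14, and the membrane arm 2 higher and 4 lower of 13. Both tested assembly factors were higher. For all 8 genes called higher, no wild-type array was above background. The split into higher and lower depended on the scaling: it was 16 and 2 with median centring over all probes, 5 and 10 with median centring over the tested genes, and 3 and 11 in the authors' processed values. Those scalings put the median of all genes at 0.78, -0.19 and 0.09, and called 69.6%, 51.9% and 24.2% of all tested genes.

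Ndufa1 had log2 intensities of 7.86, 7.76, 7.36, 7.25 and 7.86 on mutant arrays at 12 h, against 11.16, 10.82 and 10.80 on wild-type arrays. The groups lay far apart, and the gene was 9.91-fold lower in mutant (-3.31 ± 0.27 SE, limma adjusted p = 3.6e-09). Ndufa13 had 9.54, 9.67, 9.26, 9.37 and 9.40 on mutant arrays, against 11.24, 11.03 and 10.71 on wild-type arrays, and was 2.92-fold lower (-1.54 ± 0.19 SE, limma adjusted p = 1.1e-06). Both genes kept the call under each of the 9 other settings.

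Ndufa12, an accessory subunit of the matrix arm, had 5.98, 5.99, 5.62, 5.59 and 5.61 on mutant arrays at 12 h, against 6.97, 7.18 and 6.74 on wild-type arrays. All arrays were above background and the groups did not overlap; the gene was 2.30-fold lower in mutant (-1.2 ± 0.22 SE, limma adjusted p = 0.0002). This was the opposite sign to 0 h, when the gene had 4.84, 5.03, 5.66, 5.50 and 5.86 on mutant arrays, against 4.96, 4.72 and 4.81 on wild-type arrays (0.55 ± 0.22 SE, limma adjusted p = 0.048). At 0 h the groups overlapped, 1 mutant and no wild-type array was above background, and the call was lost under 8 of 12 other settings.

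Ndufb6, an accessory subunit of the membrane arm, had 6.09, 5.92, 5.92, 5.74 and 6.10 on mutant arrays at 12 h, against 7.58, 7.50 and 6.73 on wild-type arrays. The groups did not overlap, and the gene was 2.50-fold lower in mutant (-1.32 ± 0.30 SE, limma adjusted p = 0.0016). At 0 h it had 4.58, 4.86, 5.91, 5.51 and 5.88 on mutant arrays, against 5.60, 4.64 and 4.59 on wild-type arrays (0.41, adjusted p = 0.28). Ndufa5 had 5.56, 5.56, 5.64, 5.70 and 5.63 on mutant arrays at 12 h, against 6.61, 7.0 and 6.02 on wild-type arrays (-0.92 ± 0.25 SE, limma adjusted p = 0.006); without wild-type array 2 the adjusted p was 0.059. With median centring over all probes, Ndufa12 was at -0.03, Ndufb6 at -0.22 and Ndufa5 at 0.26, and none of them was called.

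Ndufb7, a membrane arm subunit on the side of the intermembrane space, had 5.12, 4.95, 5.18, 5.09 and 5.01 on mutant arrays at 12 h, against 5.55, 5.53 and 5.47 on wild-type arrays, which were not above background (-0.45 ± 0.11 SE, limma adjusted p = 0.0034). The groups did not overlap, and with median centring the difference was 0.17.

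The core subunits Ndufs7, Ndufv1, Ndufs8 and Ndufs3 were higher in mutant at 12 h as they were at 0 h, and these 4 were the only complex I genes called higher at both times. Ndufs7 spanned 6.46 to 6.98 on mutant and 5.29 to 5.70 on wild-type arrays, and was at least 1.33-fold higher in mutant (1.26 ± 0.32 SE, limma adjusted p = 0.0034). Ndufv1 spanned 6.34 to 6.67 on mutant and 5.37 to 5.64 on wild-type arrays, and was at least 1.11-fold higher (0.97 ± 0.31 SE, limma adjusted p = 0.017). These bounds set each wild-type array at the higher of its detection limit and the probe's own signal. Ndufs8 had 5.97, 6.15, 6.22, 5.83 and 6.21 on mutant arrays, against 5.60, 5.62 and 5.09 on wild-type arrays (0.64 ± 0.22 SE, limma adjusted p = 0.021). Ndufs3 had 5.64, 5.65, 5.95, 5.93 and 5.82 on mutant arrays, against 5.45, 5.40 and 4.76 on wild-type arrays (0.59 ± 0.23 SE, limma adjusted p = 0.036). For each of the 4 the groups did not overlap. The wild-type detection limits at 12 h were 6.18 to 6.55. All mutant values of Ndufs3 lay below these limits, and those of Ndufs8 reached only 6.22, so neither gave a lower bound. The share of all tested genes called higher at both times was not taken. Without wild-type array 3 the calls of Ndufv1, Ndufs8 and Ndufs3 were lost. The whole count was then 8, with 2 higher and 6 lower, where 27% of all tested genes were called. The assembly factors Ndufaf1 (0.39) and Ndufaf4 (0.35) were higher by amounts close to the median of all genes, and were at -0.39 and -0.36 with median centring over the tested genes.

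At 24 h, 3 complex I genes were higher and 7 were lower in mutant (limma, adjusted p below 0.05), where 16.8% of all tested genes were called, 8.61% higher and 8.17% lower. The median log2 difference was -0.02 over the complex I genes and 0.17 over all genes. With no detection filter the median of all genes was -0.01 and 5.51% were called, with 1 higher and 6 lower of 40 complex I genes. The membrane arm held 3 higher and 5 lower of 13, the matrix arm 0 higher and 2 lower of 14, and none of the 5 core subunits was called. The 7 lower genes were above background in both groups. The count was 6 without wild-type array 2 and also 6 without mutant array 5, with 1 higher and 5 lower each time. With median centring it was 3. In these fits 8.94%, 12.6% and 10.5% of all tested genes were called.

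Ndufa1 had log2 intensities of 8.12, 8.15, 7.85, 7.91 and 8.01 on mutant arrays at 24 h, against 11.20, 11.12 and 10.73 on wild-type arrays. The gene was 8.05-fold lower in mutant (-3.01 ± 0.27 SE, limma adjusted p = 4.6e-08) and kept the call under each other setting. Ndufa13 had 9.28, 9.46, 9.05, 9.25 and 9.26 on mutant arrays, against 10.63, 10.36 and 10.07 on wild-type arrays, and was 2.13-fold lower (-1.09 ± 0.19 SE, limma adjusted p = 0.00025). Neither gene's groups overlapped at any time.

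Ndufb6 had 6.36, 6.14, 5.95, 5.65 and 5.80 on mutant arrays at 24 h, against 7.74, 7.53 and 7.29 on wild-type arrays, and was 2.91-fold lower (-1.54 ± 0.30 SE, limma adjusted p = 0.00084). Ndufa5 had 6.09, 6.13, 5.68, 5.72 and 6.01 on mutant arrays, against 7.57, 7.35 and 6.80 on wild-type arrays, and was 2.48-fold lower (-1.31 ± 0.25 SE, limma adjusted p = 0.00073). Ndufa12 had 6.30, 6.31, 6.00, 5.84 and 6.10 on mutant arrays, against 7.13, 7.19 and 6.82 on wild-type arrays, and was 1.92-fold lower (-0.94 ± 0.22 SE, limma adjusted p = 0.0047). Every mutant array was below every wild-type array for these genes. With median centring, Ndufa13 (-0.52), Ndufb6 (-1.25), Ndufa5 (-0.92) and Ndufa12 (-0.46) kept the sign and lost the call.

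The membrane arm subunits Ndufb8 (-1.12, adjusted p = 0.042) and Ndufc1 (-0.77, adjusted p = 0.048) were lower at 24 h as well, with calls that were lost in 7 and 6 of 8 fits that left out 1 array. Ndufb8 had been higher at 0 h (0.94, adjusted p = 0.047), and was lost there within the arrays above and below 200 alike. The genes higher at 24 h were Ndufb3, Ndufb11 and Ndufb9, all accessory subunits of the membrane arm and all above background on no wild-type array. Ndufb3 spanned 5.57 to 5.78 on mutant and 4.72 to 4.91 on wild-type arrays (0.88 ± 0.18 SE, limma adjusted p = 0.0017), and it was also higher at 12 h (0.72, adjusted p = 0.0039). Ndufb11 had 5.89, 5.15, 5.49, 5.20 and 5.44 on mutant arrays, against 4.98, 4.88 and 4.71 on wild-type arrays (0.58 ± 0.18 SE, limma adjusted p = 0.029). Ndufb9 had 6.42, 6.09, 5.97, 5.95 and 6.52 on mutant arrays, against 5.75, 5.76 and 5.41 on wild-type arrays, and was at least 1.09-fold higher (0.55 ± 0.19 SE, limma adjusted p = 0.045). The groups did not overlap for these 3 genes, but the calls of Ndufb11 and Ndufb9 were lost in 5 and 6 of 8 fits that left out 1 array. Ndufb11 was above background on 3 arrays in all, mutant 24 h arrays 1, 3 and 5, and Ndufb9 on 10, all of them mutant. The direction of these 2 calls is thus not independent of the filter. All mutant values of Ndufb3 and Ndufb11 also lay below the wild-type detection limits at 24 h (6.00 to 6.12). The call of Ndufb3 at 24 h was lost with median centring over all probes (0.72, adjusted p = 0.21) and over the tested genes (0.33, adjusted p = 0.12).

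**Figure D3:**
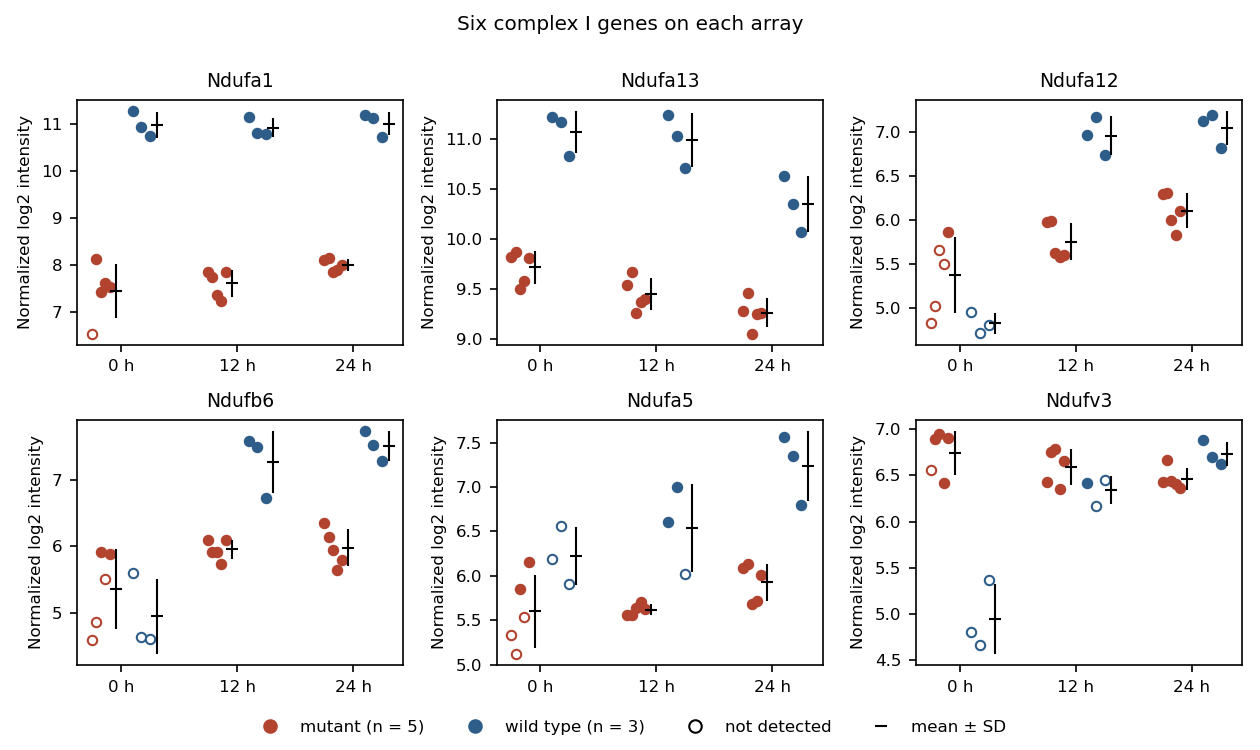
Normalized log2 intensity of 6 complex I genes on each array, with mutant (red, n = 5) left of wild type (blue, n = 3) at each time, open points where the probe was not above background, and bars for the mean ± SD. Ndufa1 stands at 6.55 to 8.15 on all mutant arrays and at 10.73 to 11.29 on all wild-type arrays, while the genotypes of Ndufa12 and Ndufb6 separate at 12 and 24 h only.

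Across the 3 times, 25 of the 31 tested genes were called at 1 time or more and 6 at none. Among all tested genes 42.5%, 50.2% and 16.8% were called at 0, 12 and 24 h. The shares of all genes with this or the following patterns were not taken, so the counts describe these genes only. Lower at all 3 times were 3 genes, Ndufa1, Ndufa13 and Ndufa5, and higher at all 3 times was none. The place of Ndufa5 there rests on its 0 h call, which was lost under 8 of 12 other settings. Lower at both 12 and 24 h were 5 genes, these and Ndufa12 and Ndufb6. The 2 genes that were higher at 0 h and lower later were Ndufa12 and Ndufb8. The comparisons at different times use different arrays, though the scalings and the estimate of spread are shared. Residuals of same-numbered arrays also correlated between 24 and 12 h, at 0.176 to 0.668 in mutant and 0.308 to 0.515 in wild type. Calls at several times may therefore not be independent repeats.

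A few of the genes not called were bright or stood out otherwise. Ndufa3, a membrane arm subunit, spanned 9.46 to 10.25 on mutant and 9.62 to 10.01 on wild-type arrays at 0 h (0.04 ± 0.24 SE, limma adjusted p = 0.91) and 9.29 to 10.18 on mutant and 9.47 to 9.83 on wild-type arrays at 12 h (0.03, adjusted p = 0.93). At 24 h its groups did not overlap but it was not called (-0.55, adjusted p = 0.11). Ndufa4 was not called at 0 h (1.34 ± 0.55 SE, limma adjusted p = 0.054), where it spanned 8.09 to 9.16 on mutant and 4.91 to 9.24 on wild-type arrays. The pseudogene Ndufs5-ps, which may share signal with Ndufs5, had 4.62, 4.63, 5.58, 5.02 and 5.51 on mutant arrays at 0 h, against 4.88, 4.7 and 4.61 on wild-type arrays (0.34, adjusted p = 0.27). Its 24 h arrays did overlap, with 6.49, 6.35, 5.71, 5.55 and 6.11 in mutant, against 6.75, 6.72 and 6.35 in wild type (-0.57, adjusted p = 0.11).

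Over the first 12 h of culture, 17 complex I genes rose and 0 fell in wild type (limma, adjusted p below 0.05), where 44.7% of all tested genes were called, 35.9% higher and 8.75% lower. The median log2 change was 0.83 over the complex I genes and 0.36 over all genes. In mutant 3 complex I genes rose and 0 fell, where 27.9% of all genes were called, 23.2% higher and 4.62% lower, and the medians were 0.27 and 0.25. In wild type, 8 of 14 matrix arm and 7 of 13 membrane arm subunits rose, and for 13 of the 17 no array was above background at 0 h. For 5 of these (Ndufa8, Ndufb7, Ndufb9, Ndufs5-ps and Ndufs8) none was above background at 12 h either, so their rises lie wholly below the detection limit. Only Ndufb6 (at least 1.1-fold) and Ndufa10 (at least 1.12-fold) gave a lower bound.

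In wild type Ndufa12 rose by 2.13 ± 0.25 SE on the log2 scale (limma adjusted p = 3.6e-07) and Ndufb6 by 2.33 ± 0.33 SE (limma adjusted p = 6.2e-06). The corresponding changes in mutant were 0.38 (adjusted p = 0.13) and 0.60 (adjusted p = 0.081). The genes that rose in mutant were Ndufs5-ps (0.76 ± 0.21 SE, limma adjusted p = 0.011), Ndufb7 (0.32 ± 0.10 SE, limma adjusted p = 0.016) and Ndufc1 (0.63 ± 0.23 SE, limma adjusted p = 0.043). Ndufb7 had 5.12, 4.95, 5.18, 5.09 and 5.01 on mutant arrays at 12 h, against 4.62, 4.72, 4.81, 4.7 and 4.87 at 0 h, with no overlap. At 12 h Ndufs5-ps had 6.19, 5.89, 5.66, 5.71 and 5.73 on mutant arrays, all above those at 0 h. The mutant count is not stable: it was 6 without mutant 0 h array 3, 10 without mutant 0 h array 5 and 8 with the replicate number as a block. It was 17 with the 0 h arrays of median raw intensity above 200 alone and 2 with the others. The shares of all tested genes called moved too, at 29.8%, 35.4%, 34.3%, 60.6% and 27.1% in that order. In wild type the count with the 0 h arrays above 200 was 23, with 21 higher, where 56.3% of all tested genes were called. The others hold a single wild-type 0 h array, and there the median change was 0.54 over the complex I genes and 0.27 over all genes.

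The change from 0 to 12 h itself differed between the genotypes for 10 complex I genes (limma, adjusted p below 0.05), in each of which the mutant change was the smaller in the upward direction, and for 0 in the other direction. Among all tested genes 15.6% were called, 3.36% with the larger and 12.2% with the smaller change in mutant. The median log2 difference of the changes (mutant minus wild type) was -0.45 over the complex I genes and -0.10 over all genes. The 10 comprised 6 of 14 matrix arm subunits (Ndufa12, Ndufv3, Ndufs6, Ndufa2, Ndufa7 and Ndufa6) and 4 of 13 membrane arm subunits (Ndufb6, Ndufa10, Ndufa8 and Ndufb7). For Ndufa12 the difference was -1.75 ± 0.31 SE (limma adjusted p = 0.00051), and for Ndufv3 -1.55 ± 0.29 SE (limma adjusted p = 0.00077), with changes of -0.15 in mutant and 1.4 in wild type. The second probe of Ndufv3 gave a difference of -0.82 that was not called (adjusted p = 0.071 over all probes), with changes of 0.34 in mutant and 1.17 in wild type. Ndufv3 had, on the probe used, 6.43, 6.75, 6.78, 6.35 and 6.65 on mutant arrays at 12 h, against 6.42, 6.17 and 6.45 on wild-type arrays. These groups overlapped, and the genotypes differed at 0 h (1.80) but were not called different at 12 h (0.25, adjusted p = 0.31).

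For Ndufs6 the change was -0.24 in mutant and 2.15 in wild type, a difference of -2.39 ± 0.62 SE (limma adjusted p = 0.01), and within the 0 h arrays of median raw intensity below 200 the call was lost (-0.40). The count of 10 was 6 without wild-type 0 h array 3 and also 6 without wild-type 12 h array 1. In these fits 11.5% and 12.5% of all tested genes were called. It was 9 in this direction and 2 in the other with the 0 h arrays above 200 alone, where 29.4% of all were called. With the others, which hold a single wild-type 0 h array, the median difference was -0.59 over the complex I genes and -0.18 over all genes. With median centring over all probes 1 gene was called, where 2.02% of all tested genes were. Genotype comparisons and time changes share the same 0 h and 12 h arrays, so they are not independent.

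**Figure D4:**
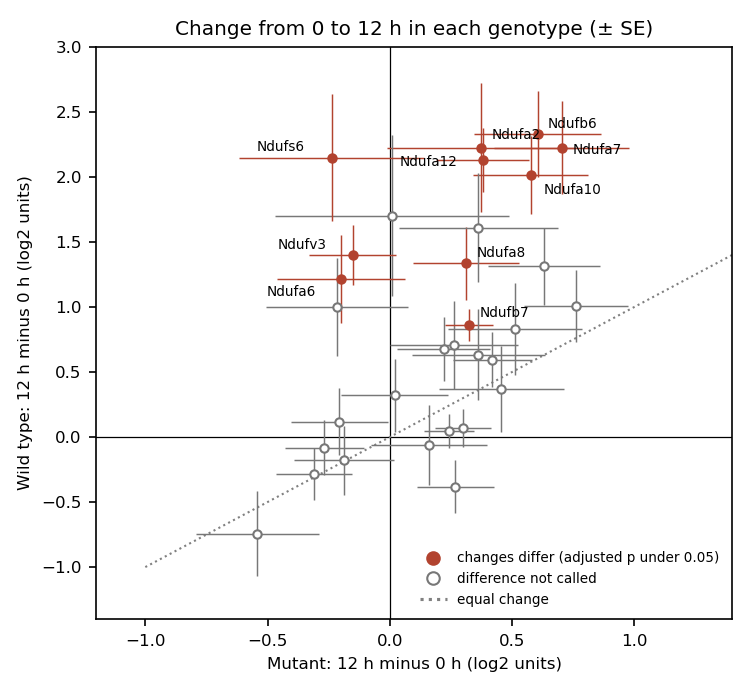
Log2 change from 0 to 12 h for the 31 tested complex I genes in mutant (horizontal axis) and wild type (vertical axis), ± SE of the limma fit. Red points are the 10 genes whose changes differed between genotypes, and all of them lie above the dotted line of equal change.

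From 12 to 24 h, 4 complex I genes rose and 1 fell in mutant (limma, adjusted p below 0.05), where 27.2% of all tested genes were called, 12.6% higher and 14.6% lower. The median log2 change was 0.21 over the complex I genes and -0.12 over all genes. Ndufb9 rose to 6.42, 6.09, 5.97, 5.95 and 6.52 at 24 h, against 5.74, 5.51, 5.16, 5.22 and 5.49 at 12 h (0.77 ± 0.16 SE, limma adjusted p = 0.0013), with all of these arrays above background and no overlap. Ndufb11 rose to 5.89, 5.15, 5.49, 5.20 and 5.44 at 24 h, against 5.03, 4.79, 5.02, 4.91 and 4.80 at 12 h, at least 1.21-fold (0.52 ± 0.15 SE, limma adjusted p = 0.015). It passed the filter through mutant 24 h arrays 1, 3 and 5 alone, so the direction of its rise is not independent of the filter. Ndufa7 rose as well (0.87 ± 0.28 SE, limma adjusted p = 0.022), as did Ndufs4 (0.84 ± 0.26 SE, limma adjusted p = 0.018), an accessory subunit of the matrix arm added late in assembly. Ndufc2, a membrane arm subunit, fell (-0.76 ± 0.25 SE, limma adjusted p = 0.029). The count was 3 without mutant 12 h array 4, 1 without mutant 24 h array 1 and 3 without mutant 24 h array 2. These fits called 18.8%, 18.4% and 20.1% of all tested genes. The B cell markers moved over the same interval, 6 of 8 falling in mutant, and their part in these changes was not tested.

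In wild type 0 complex I genes were called from 12 to 24 h by limma, where 5.82% of all tested genes were called, and 6 had an unadjusted p below 0.05. Among these, Ndufs5-ps was at 6.75, 6.72 and 6.35 at 24 h, against 5.71, 6.01 and 5.50 at 12 h (0.87 ± 0.27 SE, limma adjusted p = 0.065). Ndufa13 was at 10.63, 10.36 and 10.07 at 24 h, against 11.24, 11.03 and 10.71 at 12 h (-0.64 ± 0.21 SE, limma adjusted p = 0.077). The 3 wild-type arrays at each time correlated by number. With the number as a block 3 complex I genes were called, 2 higher and 1 lower, where 8.3% of all tested genes were called. For 0 complex I genes did limma call a different change from 12 to 24 h in mutant than in wild type, where 1.3% of all tested genes were called, and 4 had an unadjusted p below 0.05. The smallest p belonged to Ndufs3 (-0.92 ± 0.32 SE, limma adjusted p = 0.19). It had 5.35, 5.25, 5.59, 5.59 and 5.33 on mutant arrays at 24 h, against 6.07, 6.04 and 5.12 on wild-type arrays, which overlap. Ndufb11 came next (0.71 ± 0.25 SE, limma adjusted p = 0.19), with 4.98, 4.88 and 4.71 on wild-type arrays at 24 h, against 4.95, 4.88 and 5.30 at 12 h.

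Other genes of complex I without the Nduf prefix gave few values. Of 14 such genes on the array, mostly assembly factors, 6 were tested, and 0 were called between genotypes at 0 h, where 2 of them, Dmac1 (0.46, adjusted p = 0.14) and Dmac2 (-0.48, adjusted p = 0.18), lay farthest from 0. At 12 h 3 of the 6 were higher in mutant, where 34.3% of all tested genes were higher. These were Lyrm2 (0.45 ± 0.10 SE, limma adjusted p = 0.0015), Foxred1 (0.49 ± 0.14 SE, limma adjusted p = 0.0077) and Dmac1 (0.72 ± 0.25 SE, limma adjusted p = 0.023). None of the 6 was above background on any wild-type array at any time. They thus passed the filter through mutant arrays alone, and the direction of these calls is not independent of the filter. At 24 h 0 of the 6 were called. Subunits of respiratory complexes II to V, of which 37 of 50 were tested, had 15 higher and 5 lower in mutant at 0 h, 5 higher and 10 lower at 12 h, and 6 higher and 10 lower at 24 h. Mitochondrial ribosomal proteins, of which 54 of 76 were tested, had 22 higher and 1 lower at 0 h, 21 higher and 2 lower at 12 h, and 4 higher and 2 lower at 24 h. At 0, 12 and 24 h, 42.5%, 50.2% and 16.8% of all tested genes were called. These shares were 54.1%, 40.5% and 43.2% for complexes II to V and 42.6%, 42.6% and 11.1% for the ribosomal proteins. No test of a difference between these lists and complex I or all genes was made.

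Of the 3 tested genes with more than 1 probe past the filter, Ndufv3 has been given. The second probe of Ndufa8, a membrane arm subunit on the side of the intermembrane space, gave 1.03 at 0 h, where the probe used gave 0.77. At 12 h the second probe gave 0.46 (adjusted p = 0.023 over all probes) and the probe used -0.26 (adjusted p = 0.38), so the 2 probes disagree in sign. Over the first 12 h the second probe of Ndufa8 changed by -0.47 in mutant (adjusted p = 0.014 over all probes) and by 0.09 in wild type (adjusted p = 0.7), where the probe used gave 0.31 and 1.34. The difference between those changes was -0.56 on the second probe and was not called (adjusted p = 0.099), so the calls of Ndufa8 over that interval rest on 1 of its 2 probes. The 4 probes of Ndufs4 gave 0.45 to 0.76 at 24 h, of which 1 was called (adjusted p = 0.00055 over all probes).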

How the data were processed

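Total RNA from blood rich in reticulocytes was extracted, amplified and labelled with biotin for Illumina bead arrays, per the labels. The deposited unnormalized table gives an intensity per probe and array, with no background subtraction, as the authors left it, and the authors deposited beside it each probe's detection p-value. The authors' processed intensity values, on a linear scale with the method not given in the sources used here, served as an alternative. For the middle time the deposited key has 15 h and the labels 12 h, which was used. The groups are those the labels give.

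Intensities were background-corrected by the normexp model with an offset of 16, quantile-normalized and put on the log2 scale (limma 3.58.1, neqc, R 4.3.3). A probe was kept with a detection p below 0.01 on at least 3 of 24 arrays, and the brightest probe was taken for each gene, which left 4846 genes. A limma model of 6 group means with an intensity trend was fitted on all of them, and p-values were adjusted by Benjamini and Hochberg over all 4846 genes, with a threshold of 0.05. The number of arrays limits the precision. Where no array of a group was above background, a fold is given as a lower bound or not at all.

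Values on each array are given, for the comparison that names the gene, for up to 14 genes (12 resulted): those with the 4 smallest p in each genotype comparison and the 2 smallest in each other comparison. The complex I genes and all lists were chosen with earlier results of these data known. The symbols of all 40 were matched to the mouse reference by gene ID. Alternatives were another background correction, scaling, filter, probe rule, array weights, a smaller fit, a replicate block and leaving out each array; those on 0 h intensity and on centring over the tested genes were added after seeing the data. Residuals of same-numbered arrays correlated at 0.113 to 0.401 between 12 and 0 h in mutant, 0.176 to 0.668 between 24 and 12 h in mutant and 0.308 to 0.515 between 24 and 12 h in wild type, but the wild-type arrays at 12 and 0 h gave 0.003 to 0.100. The main model has no block, and the block was fitted as an alternative. Plots were made in Python 3.11.15 (matplotlib 3.10.9).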

Additional observations from a re-analysis of the deposited data

Results flagged for a closer look

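In 3 cases an array stood apart from the others of its group by Dixon's test, among 36 groups of 5 arrays that were examined, where chance gives about 1 in 20. Ndufv3 was at 6.67 on mutant 24 h array 2, where the next array was at 6.44. Ndufs8 was at 5.10 on mutant 0 h array 1, where the next was at 5.96, and Ndufb9 was at 5.35 on mutant 0 h array 2, where the next was at 4.96.

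The change from 0 to 12 h differed between genotypes for 10 complex I genes in the interaction test (limma, adjusted p below 0.05), each with the mutant minus wild-type difference of the changes below 0. Among all tested genes 15.6% were called, 12.2% with a difference below 0 and 3.36% above. The differences were -1.75 for Ndufa12 (adjusted p = 0.00051), -1.55 for Ndufv3 (adjusted p = 0.00077), -1.73 for Ndufb6 (adjusted p = 0.0069) and -2.39 for Ndufs6 (adjusted p = 0.01). They were -1.44 for Ndufa10 (adjusted p = 0.013), -0.54 for Ndufb7 (adjusted p = 0.023), -1.52 for Ndufa7 (adjusted p = 0.023) and -1.41 for Ndufa6 (adjusted p = 0.026). Those nearest the threshold were -1.85 for Ndufa2 (adjusted p = 0.046) and -1.03 for Ndufa8 (adjusted p = 0.0497), and each of these 2 calls was lost in 13 of 16 fits that left out 1 array. The second probes of Ndufa8 (-0.56) and Ndufv3 (-0.82) were not called. Wild-type arrays at 0 h were above background for Ndufs6, Ndufa2 and Ndufa6 on 1 of 3 arrays and for the other 7 genes on none, and the part of the detection limit in these differences was not tested.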

How the results depend on the processing

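Values of single named genes, called or not, kept direction and side of the threshold in 775 cases under other settings, lost a call in 159, gained one in 9 and reversed in 11; with 1 array left out these were 646, 128, 0 and 0. Counts of complex I genes called are given below where they moved by over 1.5 times, with higher and lower in brackets; the cause was not tested. In the authors' processed values the count was 9 (8 and 1) at 0 h. For the mutant change from 0 to 12 h it was 0. From 12 to 24 h it was 3 for the wild-type change, 16 (16 and 0) for the mutant change and 1 for the genotype difference. The shares of all tested genes called were 38.2%, 13.7%, 7.08%, 21.6% and 6.79%, in that order. With only the groups compared in the fit the count was 5 at 0 h and 17 (6 and 11) at 24 h. For the mutant and wild-type changes from 12 to 24 h it was 17 and 4. For the genotype differences from 0 to 12 and 12 to 24 h it was 5 and 3. Shares of all tested genes called were 12.2%, 44.8%, 51.8%, 14.8%, 9.02% and 10.3%, in the same order. With array weights the count was 26 (12 and 14) at 12 h, where 82.7% of all tested genes were called. It was 19 (6 and 13) at 24 h, where 54.6% of all were called. For the mutant and wild-type changes from 12 to 24 h it was 20 and 10, and 10 for their difference. There 67.5%, 31% and 35.6% of all tested genes were called. With median centring over all probes the count was 3 at 24 h, 10 for the wild-type change from 0 to 12 h and 1 for the genotype difference there. Of all tested genes 10.5%, 20.6% and 2.02% were called. With centring over the tested genes the count was 15 and 3 for the mutant and wild-type changes from 12 to 24 h and 1 for their difference. Of all tested genes 33.2%, 4.81% and 4.6% were called. With no filter, which takes in all 40 genes, the mutant changes had 5 and then 3, of which 2 each time were among the 31 tested. Without the filter 17.5% and then 5.47% of all genes were called. With no background correction the wild-type change from 12 to 24 h had 1, where 5.39% of all tested genes were called. For the mutant change from 0 to 12 h the replicate block gave 8, the 0 h arrays above 200 gave 17 and that split as a term gave 0. These fits called 34.3%, 60.6% and 15% of all tested genes. The replicate block gave 3 for the wild-type change from 12 to 24 h, where 8.3% of all tested genes were called. It moved no other count by over 1.5 times. Numbers shared by mutant and wild-type arrays did not pair them (correlations of -0.455 to 0.250 at 12 h).

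By scaling, higher and lower were 18 and 1 (median centring), 15 and 5 (tested genes) and 8 and 1 (authors' values) at 0 h. At 24 h they were 2 and 1, 2 and 6, and 5 and 9. The median of all genes was 0.61, -0.15 and 0.17 at 0 h and 0.26, -0.13 and 0.16 at 24 h. Of all tested genes 37.5%, 50% and 38.2% were called at 0 h and 10.5%, 13.7% and 32.1% at 24 h.

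Reversed under median centring were Ndufa5 at 0 h (0.52) and 12 h (0.26), Ndufb7 at 12 h (0.17) and in the genotype difference from 0 to 12 h (0.078), and Ndufb9 at 12 h (0.61). Reversed under centring over the tested genes were Ndufb7 at 0 h (-0.67), Ndufaf1 (-0.39) and Ndufaf4 (-0.36) at 12 h and the wild-type change of Ndufb9 from 0 to 12 h (-0.033). Within the 0 h arrays below 200, Ndufs6 (-0.53) and the wild-type change of Ndufa4 (-0.26) reversed.

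Leaving out 1 array gave 11 to 18 genes at 0 h, 8 to 14 at 12 h and 6 to 8 at 24 h, 2 to 10 and 13 to 18 for the mutant and wild-type changes from 0 to 12 h, 1 to 6 and 0 to 0 for those from 12 to 24 h, and 6 to 13 and 0 to 0 for the genotype differences. A group left with few arrays is assumed to vary like the others. Signals of most complex I genes in wild type at 0 h lay below the detection limit, which restricts what can be said of their size there.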
